A study of Homo sapiens with 8 samples.

Results

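The S100 genes encode small calcium-binding proteins, and 8 of them are described here in NB4 cells: S100A8, S100A9, S100A12, S100A4, S100A6, S100A11, S100A13 and S100P. They were found by their symbols among the 37526 gene names listed for all 8 libraries, and they are 8 of 21 S100 genes examined. The 8 were selected on their measured levels in all 4 groups of these libraries, so their levels and fold changes are given as a description. Counts of those called are set beside the shares over all genes, and nothing is read from them. 7 of them lie on chromosome 1, and S100P, the remaining gene, lies on chromosome 4.

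NB4 is a cell line from acute promyelocytic leukemia (APL) that carries the PML/RARα fusion. RNA-seq read counts came from 4 groups of 2 libraries each. The scramble group carried the control construct in the vector pLVX-shRNA2-puro, which the labels call an empty vector and the study a scrambled shRNA. The shKDM3B group carried an shRNA against KDM3B, a histone H3 lysine 9 demethylase, in the same vector. The scramble+ATRA and shKDM3B+ATRA groups were the same transduced cells given all-trans retinoic acid (ATRA). The labels put ATRA at 1 µM, while the study's methods give the dose in another unit, and the labels give 24 or 48 h without saying which library had which. The cells were puromycin-resistant pools, and which of the 2 hairpins of the study was sequenced is not given in the sources used here. The study describes its libraries as replicates of the experiment, but neither it nor the labels say that the 2 of a group came from separate cultures, so their spread may be technical.

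S100 proteins change shape when they bind calcium and then dock on partner proteins. S100A8 and S100A9 pair as calprotectin, a major cytosolic complex of neutrophils, and with S100A12 they are the calgranulins, which are released and signal through receptors such as RAGE (gene AGER) and TLR4. ATRA drives APL cells towards granulocytes, and the calgranulins are made in quantity by maturing neutrophils and monocytes. S100A4, S100A6, S100A11, S100A13 and S100P act mainly inside cells, on the cytoskeleton, annexins and protein export.

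Each library had between 9708739 and 33017787 read pairs counted on genes, and the 8 genes took from 0.0178% to 0.0972% of them. Levels are in CPM, read counts brought to a common library size with TMM scaling over the 8 libraries. KDM3B was at 187.4 and 187.9 CPM in scramble, 76.35 and 86.15 in shKDM3B, 196.4 and 121.4 in scramble+ATRA, and 52.45 and 57.4 in shKDM3B+ATRA. Of the promyelocyte markers, MPO was at 4814 ± 748.7 CPM in scramble, 8928 ± 833.2 in shKDM3B, 672.7 ± 80.43 in scramble+ATRA and 2674 ± 641.4 in shKDM3B+ATRA (mean ± SD, n = 2), and CTSG at 109.8 ± 7.28, 137.8 ± 15.7, 3.21 ± 1.27 and 1.855 ± 0.207 CPM, while ELANE, PRTN3 and AZU1 stayed at or below 1.48 CPM throughout. MPO was thus lower with ATRA and higher in shKDM3B in both settings, and its part in the S100 values was not tested. The summed level of 12 markers of other cell types ranged from 30.2 to 40.8 CPM, with MS4A1, HBB and HBA1 at 0 in all 8 libraries. In scramble+ATRA replicate 2 and both shKDM3B+ATRA libraries, 50.0% to 51.4% of uniquely aligned read pairs lay outside genes, against 8.49% to 9.62% in the other 5. That share separates the shKDM3B+ATRA group from all untreated libraries, so it and ATRA cannot be told apart in shKDM3B cells. The knockdown values of S100 genes in ATRA-treated cells, and the ATRA changes of S100A8 and S100A9 in scramble cells, are therefore also given without one or the other scramble+ATRA library. The gene names listed also differ, with 56470 for every untreated library, 56609 for every treated one and 37526 shared. The list of names and ATRA therefore cannot be told apart in either background.

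The calgranulin genes sit side by side. In GENCODE v44 on hg38, S100A9 (ENSG00000163220.11, chr1:153357854-153361023, plus strand), S100A12 (ENSG00000163221.9, chr1:153373711-153375621, minus strand) and S100A8 (ENSG00000143546.10, chr1:153390032-153391073, minus strand) fall within 33.2 kb. S100A6 (ENSG00000197956.10, chr1:153534599-153536244) and S100A4 (ENSG00000196154.12, chr1:153543613-153550136) span 15.5 kb further along on the minus strand. S100A13 (ENSG00000189171.15, chr1:153618787-153631360, minus strand) lies next to S100A1 at the far end of the cluster, and S100A11 (ENSG00000163191.6, chr1:152032506-152047907, minus strand) stands apart from it on the S100A9 side, the interval from S100A11 to S100A9 spanning 1329 kb. S100P (ENSG00000163993.7) is at chr4:6693878-6697170 on the plus strand. The coding sequence of the 8 is 270 to 342 bases long, in a canonical transcript of 3 exons for 7 genes and of 2 exons for S100P.

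The 250 bases before the RefSeq start (GRCh38.p14) are shown for the 3 calgranulin genes, whose levels differ most with ATRA, and for S100A4, a neighbour whose mean level in scramble cells does not. Each is written 5′ to 3′ on the gene's own strand, with capitals marking every match to the 4 short motifs searched on both strands. The calgranulin windows are chr1:153391074-153391323 for S100A8, chr1:153357604-153357853 for S100A9 and chr1:153375622-153375871 for S100A12, and that of S100A4 is chr1:153545807-153546056.
S100A8: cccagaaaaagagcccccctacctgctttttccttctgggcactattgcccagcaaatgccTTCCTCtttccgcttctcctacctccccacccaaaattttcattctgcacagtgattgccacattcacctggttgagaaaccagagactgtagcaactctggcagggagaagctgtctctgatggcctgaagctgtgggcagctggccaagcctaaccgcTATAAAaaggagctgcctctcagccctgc
S100A9: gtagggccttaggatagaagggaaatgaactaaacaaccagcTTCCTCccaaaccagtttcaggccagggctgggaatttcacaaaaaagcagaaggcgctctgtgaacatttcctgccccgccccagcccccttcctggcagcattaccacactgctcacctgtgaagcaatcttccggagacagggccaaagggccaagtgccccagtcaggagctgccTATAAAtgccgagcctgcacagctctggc
S100A12: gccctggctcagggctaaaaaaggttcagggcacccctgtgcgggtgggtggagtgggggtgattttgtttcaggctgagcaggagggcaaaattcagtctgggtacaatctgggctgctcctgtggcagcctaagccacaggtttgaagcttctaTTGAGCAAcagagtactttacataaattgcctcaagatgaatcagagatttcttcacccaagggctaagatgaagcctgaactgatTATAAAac
S100A4: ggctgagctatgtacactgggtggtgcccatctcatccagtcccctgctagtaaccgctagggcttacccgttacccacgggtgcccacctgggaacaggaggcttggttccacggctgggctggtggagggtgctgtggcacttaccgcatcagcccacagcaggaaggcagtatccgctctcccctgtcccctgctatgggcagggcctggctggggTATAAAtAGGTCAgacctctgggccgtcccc
The TATA box motif TATAAA was found 29 bases before the start of both S100A8 and S100A9, 8 bases before that of S100A12 and 31 bases before that of S100A4. It occurred in 6 of the 8 windows, S100A6 and S100A11 lacking it, in 4 of the 11 windows of other S100 genes, and in 11.1% of 27305 promoter windows of the same length. The PU.1 core GAGGAA, the letters bound by a myeloid ETS factor, was present on the reverse strand in S100A8 and S100A9 and in 23.4% of all windows. The C/EBP core TTGCNNAA matched in S100A12 and S100A11 and in 9.13% of all windows. The retinoid receptor hexamer AGGTCA matched in S100A4 alone of the 8 and in 12.1% of all windows. No 2 matches overlapped, and a match to so few letters describes the sequence only.

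S100A8 and S100A9 had the widest range of the 8 in CPM, from at most 8.84 CPM without ATRA to at least 132 CPM in scramble+ATRA. S100A8 was at 1.46 and 0.839 CPM in scramble, 0.462 and 0.338 in shKDM3B, 132 and 152.1 in scramble+ATRA, and 10.6 and 18.1 in shKDM3B+ATRA. All 4 groups were separate, with shKDM3B lowest and scramble+ATRA highest. Its mean was 124-fold higher with ATRA in scramble cells (142 ± 14.2 against 1.15 ± 0.436 CPM, mean ± SD, n = 2) and 35.9-fold higher with ATRA in shKDM3B cells (14.4 ± 5.27 against 0.400 ± 0.0883 CPM). In ATRA-treated cells the shKDM3B mean was 9.89-fold below that of scramble, and without ATRA it was 2.87-fold below. The untreated libraries rest on few reads, 29 and 20 counts in scramble and 9 and 11 in shKDM3B.

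S100A9, the partner of S100A8 in calprotectin, was the most abundant of the 8 in ATRA-treated scramble cells. It was at 8.84 and 3.69 CPM in scramble, 3.24 and 4.08 in shKDM3B, 479.5 and 538.4 in scramble+ATRA, and 34.8 and 47.3 in shKDM3B+ATRA. The 2 untreated groups overlapped, and the ATRA-treated groups stood apart from them and from each other. ATRA-treated means were 81.2-fold higher in scramble cells (508.9 ± 41.65 against 6.26 ± 3.64 CPM) and 11.2-fold higher in shKDM3B cells (41.0 ± 8.89 against 3.66 ± 0.597 CPM), and with ATRA the shKDM3B mean was 12.4-fold below that of scramble. The first of these was 138-fold without scramble replicate 1 and 57.6-fold without replicate 2. Every one of these gaps exceeds the distance between the replicates of either group.

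S100A12, the third calgranulin, was close to the limit of detection. It had 0 and 1 counts in scramble, 0 and 0 in shKDM3B, 23 and 41 in scramble+ATRA, and 2 and 2 in shKDM3B+ATRA. In CPM the scramble+ATRA libraries were at 1.41 and 3.78 and the shKDM3B+ATRA libraries at 0.211 and 0.201. Against a limit of 3 counts per library, the scramble+ATRA mean was at least 18.8-fold higher than that of untreated scramble cells and at least 8.41-fold higher than that of shKDM3B+ATRA cells. Without scramble+ATRA replicate 1 these limits for S100A12 were 27.4-fold and 12.3-fold, and without replicate 2 they were 10.2-fold and 4.57-fold. Each limit sets the other group at 3 counts per library. It takes in neither the counting error of the scramble+ATRA mean nor other error, and no molecular identifiers were used. No fold is given between the 2 shKDM3B groups, where every library had 2 counts or fewer.

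**Figure D1:**
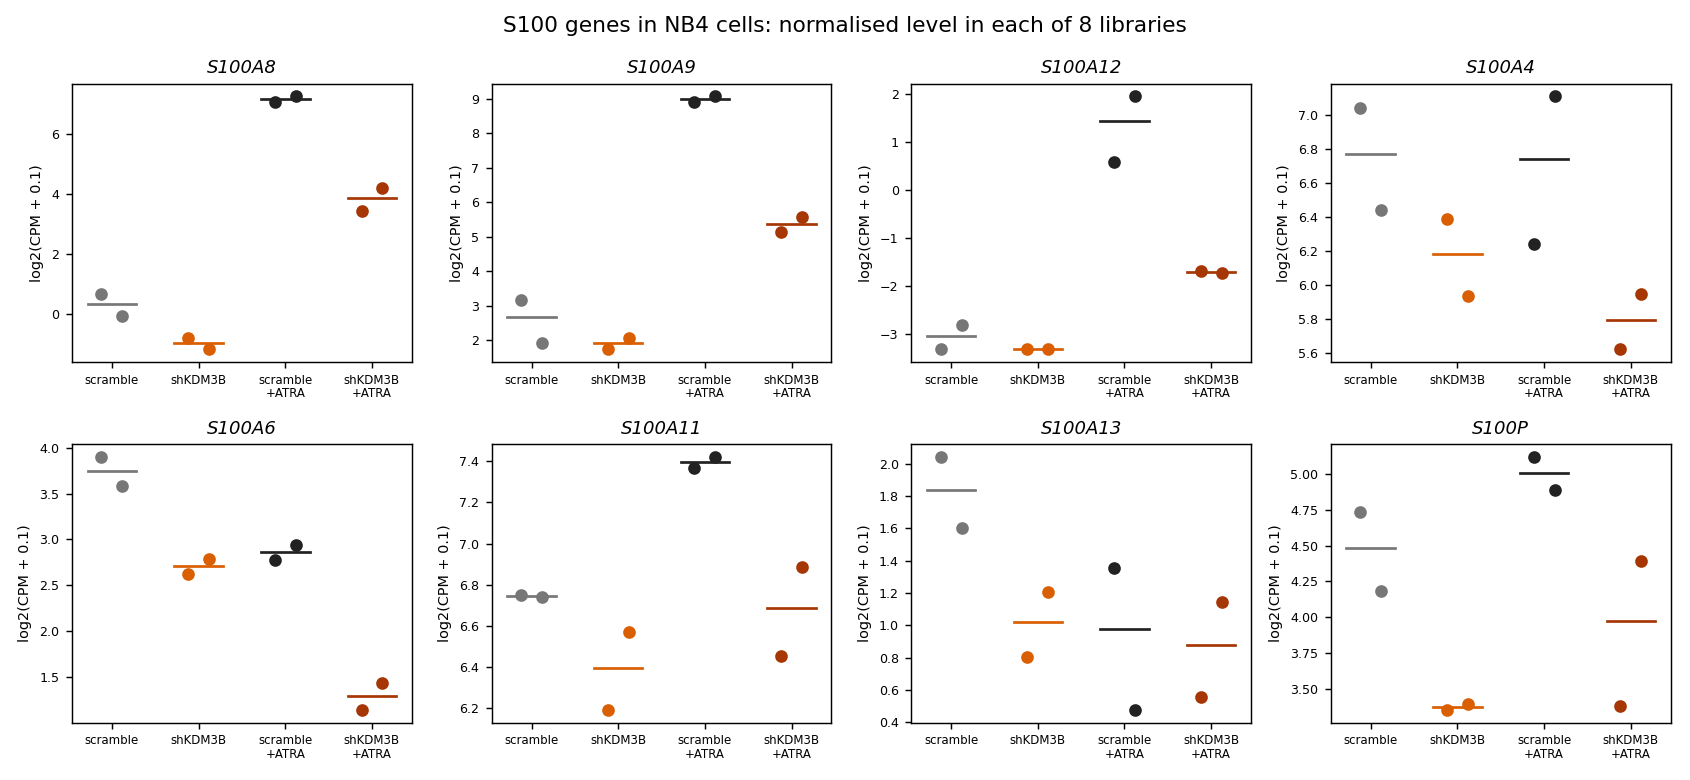
Level of each S100 gene as log2(CPM + 0.1) in the 8 libraries, with 1 point per library, a bar at the log2 of the group mean, and a separate vertical axis in each panel. S100A8 and S100A9 are highest in scramble+ATRA, where S100A8 reaches 132 and 152.1 CPM against 10.6 and 18.1 CPM in shKDM3B+ATRA, while S100A6 is lower in shKDM3B than in scramble both with and without ATRA.

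The log2 fold changes of S100A8 and S100A9 from edgeR, with standard errors (SE), showed the same order. With ATRA they were 6.99 (SE 0.35) and 6.38 (SE 0.46) in scramble cells, and 5.24 (SE 0.40) and 3.52 (SE 0.23) in shKDM3B cells. The ATRA change was thus smaller in shKDM3B cells by 1.78 (SE 0.56) on the log2 scale for S100A8 and by 2.88 (SE 0.53) for S100A9. Without scramble+ATRA replicate 1 or 2 the scramble values were 7.10 or 6.87 for S100A8 and 6.47 or 6.28 for S100A9, and the differences between the changes were -1.87 or -1.68 and -2.97 or -2.81. Leaving out scramble replicate 1 or 2 moved S100A9 more, to 7.11 or 5.87 in scramble cells and to a difference of -3.63 or -2.37. For shKDM3B+ATRA against scramble+ATRA the values were -3.30 (SE 0.33) for S100A8 and -3.63 (SE 0.22) for S100A9. They were -3.39 and -3.70 without scramble+ATRA replicate 1, which leaves only libraries with about the same share of pairs outside genes, and -3.20 and -3.54 without replicate 2. Markers of the retinoic acid response were measured in the same libraries, and the summed level of TGM2, CD38, DHRS3, CYP26A1 and ITGAM was 138.8 and 136.3 CPM in scramble, 150 and 177.4 in shKDM3B, 6666 and 5929 in scramble+ATRA, and 2885 and 3307 in shKDM3B+ATRA. Most of the ATRA-treated sum was TGM2, which had 0 counts in scramble and was at 5836 and 5142 CPM in scramble+ATRA and 2268 and 2542 in shKDM3B+ATRA. CD38 overlapped between the 2 ATRA-treated groups, at 458.8 and 460.3 against 433.6 and 548.6 CPM, and the mean of ITGAM was 7.96-fold higher with ATRA in scramble and 8.48-fold in shKDM3B cells. TGM2, DHRS3 and ITGAM were called lower in shKDM3B+ATRA than in scramble+ATRA, where 4.37% of all genes tested were so called, while CYP26A1 passed the low-count filter there only through its scramble+ATRA counts and is left out. The part of these markers in the calgranulin values was not tested. For shKDM3B against scramble without ATRA, S100A9 was at -0.76 (SE 0.42), and leaving out scramble replicate 1 brought it to -0.01.

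S100A4 and S100A6 are neighbours on chromosome 1 that are known for roles in cell motility and in proliferating cells, and neither had an ATRA-treated group that lay above the untreated group. S100A4, which binds non-muscle myosin, was at 131.5 and 86.7 CPM in scramble, 83.7 and 61.2 in shKDM3B, 75.45 and 137.9 in scramble+ATRA, and 49.2 and 61.6 in shKDM3B+ATRA. The scramble+ATRA libraries spanned the untreated scramble libraries, and their means were 106.7 ± 44.1 and 109.1 ± 31.65 CPM. In both settings the shKDM3B libraries were below the scramble libraries without overlap, with log2 fold changes of -0.59 (SE 0.23) without ATRA and -0.94 (SE 0.36) with it. The ATRA-treated difference was -1.30 without scramble+ATRA replicate 1 and -0.45 without replicate 2, so its size turns on which of these libraries is kept.

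S100A6, or calcyclin, was at 14.8 and 11.9 CPM in scramble, 6.06 and 6.81 in shKDM3B, 6.74 and 7.56 in scramble+ATRA, and 2.11 and 2.61 in shKDM3B+ATRA. Both the knockdown and ATRA went with lower values, and the cells with both had the lowest of all. It was the only one of the 8 whose ATRA-treated groups lay wholly below the untreated groups in both scramble and shKDM3B cells. Its log2 fold changes were -1.05 (SE 0.24) and -1.59 (SE 0.32) for the knockdown without and with ATRA, and -0.87 (SE 0.31) and -1.39 (SE 0.30) for ATRA in scramble and shKDM3B cells. Without scramble+ATRA replicate 1 or 2 the knockdown value with ATRA was -1.66 or -1.51. An antisense gene overlaps 3.81% of the S100A6 exons on the opposite strand, and the strand setting of the counting is not given in the sources used here.

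S100A11, a partner of annexins in membrane repair, was a steadily high gene that stood at 107.4 and 106.9 CPM in scramble, 72.9 and 94.9 in shKDM3B, 165.2 and 171.3 in scramble+ATRA, and 87.5 and 118.1 in shKDM3B+ATRA. The scramble pairs were tight, the shKDM3B pairs were wider, and scramble+ATRA stood above all other libraries. Its mean was 1.57-fold higher with ATRA in scramble cells, whereas the 2 shKDM3B groups overlapped. The log2 fold changes for the knockdown were -0.35 (SE 0.17) without ATRA and -0.71 (SE 0.19) with it. With scramble+ATRA replicate 1 or 2 left out the latter was -0.73 or -0.68.

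S100P, first described in placenta and a binder of ezrin, was at 26.5 and 18.0 CPM in scramble, 10.1 and 10.4 in shKDM3B, 34.6 and 29.5 in scramble+ATRA, and 10.3 and 20.9 in shKDM3B+ATRA. The shKDM3B libraries were below the scramble libraries in each setting, and the shKDM3B+ATRA pair was the least alike. The log2 fold change for the knockdown was -1.11 (SE 0.24) without ATRA and -1.03 (SE 0.42) with it. The latter was -0.90 or -1.15 without scramble+ATRA replicate 1 or 2, and -0.61 or -1.63 without shKDM3B+ATRA replicate 1 or 2. S100P sits on another chromosome than the other 7, and its knockdown values were within the range of theirs. For ATRA it was at 0.56 (SE 0.26) in scramble and 0.66 (SE 0.30) in shKDM3B cells, the latter 1.06 or 0.06 without shKDM3B+ATRA replicate 1 or 2.

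S100A13, which takes part in the non-classical export of FGF1 and IL-1α, was, with S100A12, among the lowest of the 8. It was at 4.02 and 2.94 CPM in scramble, 1.64 and 2.21 in shKDM3B, 2.45 and 1.29 in scramble+ATRA, and 1.37 and 2.11 in shKDM3B+ATRA. The untreated scramble libraries were the highest and the other 3 groups overlapped one another. For the knockdown the log2 fold change was -0.84 (SE 0.35) without ATRA and -0.11 (SE 0.56) with it, the latter turning to 0.44 without scramble+ATRA replicate 1 and -0.49 without replicate 2. S100A1 overlaps 10.6% of the S100A13 exons on the opposite strand, where reads cannot be told apart without strand, and another gene overlaps 24.2% on the same strand, where strand does not separate them. S100A13 is uncertain for both reasons.

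**Figure D2:**
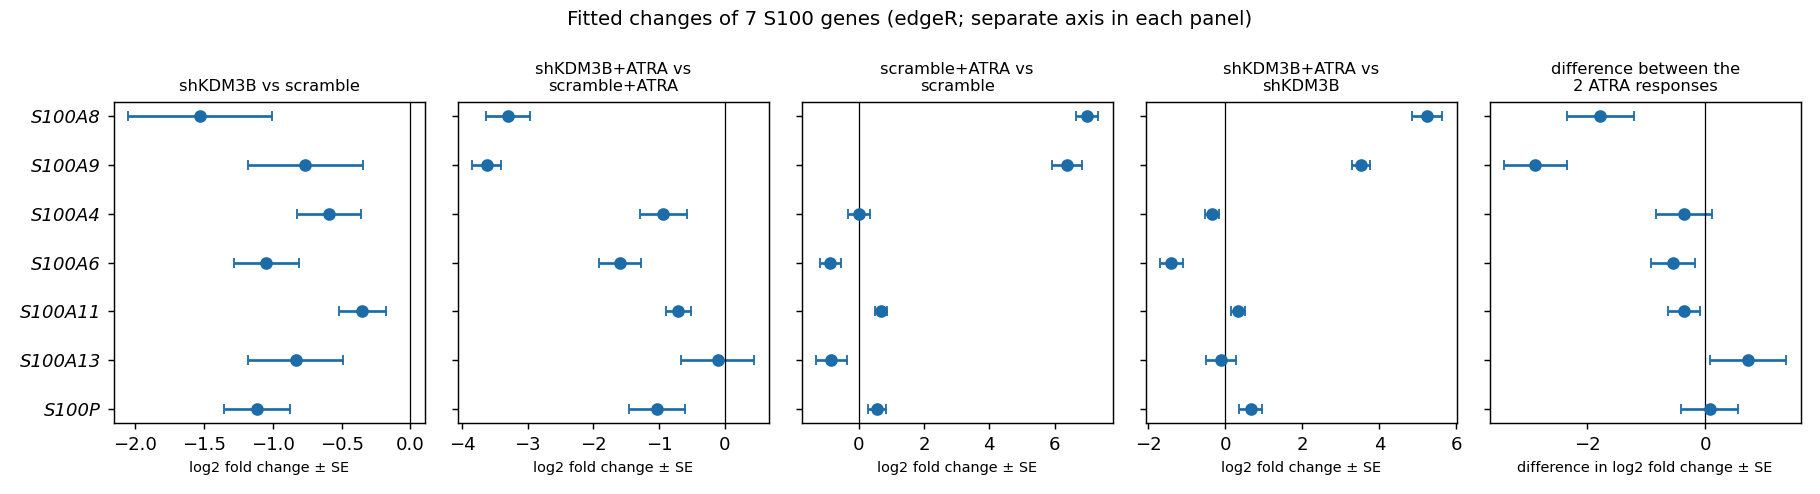
Fitted log2 fold change ± SE (edgeR, 2 libraries per group) of 7 S100 genes in 4 pairwise comparisons, and in the last panel the difference between the ATRA changes of shKDM3B and scramble cells. Each panel has its own axis, S100A12 is left out because most of its libraries had 2 counts or fewer, and all 7 genes lie left of 0 in both knockdown panels.

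The calls for the 8 genes are given comparison by comparison. The study's criterion, an unadjusted p under 0.05 with a change of at least 1.5-fold, was used to call genes. Since the genes were selected on these same contrasts, the counts of called genes are set beside the shares over all genes and nothing is read from them. A gene that passed the low-count filter only through the group where it was high is left out of the counts of that comparison. Without ATRA, 7 of the 8 passed, S100A8 only through its scramble counts, and 4 of the other 6 were called lower in shKDM3B (S100A4, S100A6, S100A13 and S100P), where 3.53% of 13855 genes were called lower and 3.48% higher. The fitted values of these 6 were below 0. All of them but S100A9 had groups that did not overlap, as had 19.1% of 13528 genes in that direction. With the replicate number as a block in the fit, S100A4 was not called. Only 2 of these calls were made without scramble replicate 1 (S100A6 and S100P), and 3 by DESeq2 (S100A4, S100A6 and S100P). With ATRA all 8 passed, S100A12 only through its scramble+ATRA counts, and 4 of the other 7 were called lower in shKDM3B (S100A8, S100A9, S100A6 and S100A11), beside 4.37% of 14281 genes lower and 2.42% higher. These 7 were below 0, and all of them but S100A13 had groups that did not overlap, beside 25.4% of genes. S100A4 and S100P were called in addition by DESeq2 and with all 8 libraries in one fit. Without shKDM3B+ATRA replicate 1, 2 genes were called (S100A8 and S100A9).

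With ATRA in scramble cells, where S100A12 again passed only through its scramble+ATRA counts, 3 of the other 7 genes were called higher (S100A8, S100A9 and S100A11) and S100A6 was called lower, beside 15% and 10.8% of 12429 genes. S100A6 and S100A11 were not called with either scramble library left out, S100A13 was called lower in addition without scramble+ATRA replicate 1, and S100P higher in addition without scramble+ATRA replicate 2. With the replicate number as a block S100A6 was not called. Among these 7 genes, the groups of S100A8, S100A9, S100A11 and S100P did not overlap in the higher direction, beside 26.6% of genes. Those of S100A6 and S100A13 did not overlap in the lower direction, beside 28.5%. In shKDM3B cells 7 passed, S100A8 only through its ATRA-treated counts, and of the other 6 S100A9 was called higher and S100A6 lower, beside 24% and 18.3% of 12756 genes. Of these 6, groups did not overlap for S100A9 in the higher direction and for S100A6 in the lower, beside 37.8% and 38.1% of genes. In the comparison of the 2 ATRA responses, S100A8 and S100A9 were called lower, beside 2.72% of 13528 genes lower and 1.27% higher, and S100A9 alone without shKDM3B replicate 1. The comparisons share libraries, so their values are set side by side and are not independent of one another.

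Per length of the canonical transcript, which is 408 to 573 bases, S100A4 and S100A11 led the family in untreated cells. In scramble cells S100A4 was at 213 ± 61.7 and S100A11 at 190.3 ± 0.720 CPM per kb, which overlapped, followed by S100P at 47.2 ± 12.6, S100A6 at 30.7 ± 4.78, S100A9 at 10.9 ± 6.35, S100A13 at 7.29 ± 1.60, S100A8 at 2.81 ± 1.07 and S100A12 at 0.0433. S100A9 and S100A13 also overlapped, and the other neighbours in that order were separate. In shKDM3B cells the order began with S100A11 at 149 ± 27.7 and S100A4 at 141.2 ± 31.1, again overlapping, and S100P, S100A6, S100A9, S100A13 and S100A8 followed without overlap.

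With ATRA the order was recast. In scramble+ATRA it ran S100A9 at 888.2 ± 72.7, S100A8 at 348.1 ± 34.75, S100A11 at 298.9 ± 7.67, S100A4 at 207.9 ± 86.0, S100P at 68.1 ± 7.68 and S100A6 at 16.5 ± 1.34 CPM per kb, each separate from the next, and S100A12 and S100A13 overlapped at the low end. In shKDM3B+ATRA it ran S100A11 at 182.6 ± 38.4, S100A4 at 108 ± 17.1, S100A9 at 71.6 ± 15.5, S100A8 at 35.2 ± 12.9 and S100P at 33.1 ± 15.9, of which the last pair overlapped. S100A9 and S100A8 thus led in scramble+ATRA and ranked behind S100A11 and S100A4 in shKDM3B+ATRA, while S100A12 stayed at the low end. With the longest transcript as the length, S100A8 in scramble+ATRA was at 198.1 CPM per kb, below S100A11 at 298.9.

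Expressed as a share of all 21 S100 genes per length, S100A8 and S100A9 together made up 3.09% and 1.72% of the family in scramble, 1.83% and 2.07% in shKDM3B, 66.9% and 64.4% in scramble+ATRA, and 21.9% and 23.3% in shKDM3B+ATRA. The share of S100A4 and S100A11 moved the other way, from 72.8% in each scramble library and 79.1% and 75.0% in shKDM3B to 25.4% and 28.1% in scramble+ATRA and 63.5% and 60.5% in shKDM3B+ATRA. These shares are of 1 total, and in CPM S100A4 had about the same mean in scramble and scramble+ATRA cells while that of S100A11 was higher with ATRA. The summed level of the 8 genes was 294.5 and 231 CPM in scramble, 178.2 and 179.9 in shKDM3B, 897.4 and 1042 in scramble+ATRA, and 196.1 and 270.9 in shKDM3B+ATRA. The summed CPM of the 8 genes in shKDM3B+ATRA thus overlapped that in scramble, with another makeup. That of the 13 other S100 genes was 36.55 and 38.73 CPM in scramble and 18.75 and 22.61 in shKDM3B+ATRA. CPM is a share of each library and does not give the amount of RNA in the cells. In RNA from whole cultures, fewer expressing cells and less RNA per cell cannot be told apart.

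**Figure D3:**
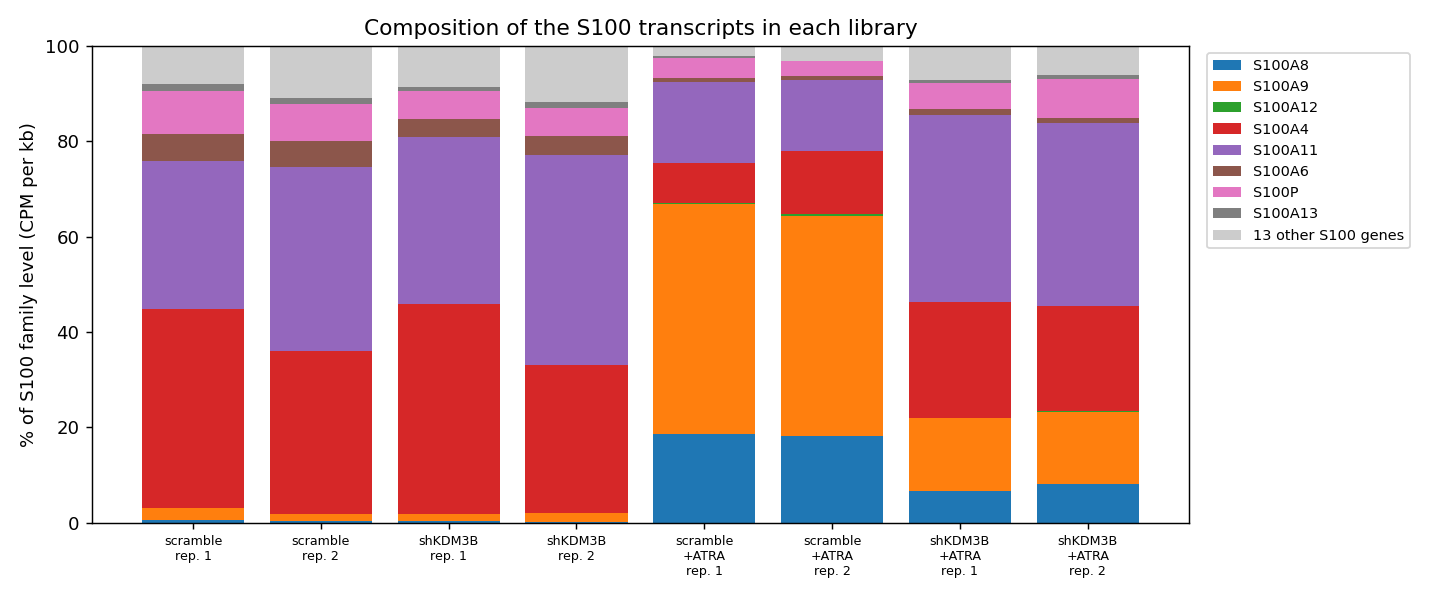
Share of each of the 8 S100 genes, and of the 13 others together, in the summed level of the 21 S100 genes (CPM per kb of canonical transcript) in each library, 1 bar per library. S100A8 and S100A9 take 64.4% to 66.9% in scramble+ATRA, 21.9% to 23.3% in shKDM3B+ATRA and at most 3.09% without ATRA.

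The genes closest in profile to each of the 8 were found by the root mean square difference of log2 CPM over the 8 libraries, after centring each gene, among 8717 genes with a mean of at least 10 CPM. For S100A8 they were CYP4F3 at 0.54, FFAR2 at 0.56 and BCL2A1 at 0.73, where the median over all genes was 3.30. For S100A9 they were FFAR2 at 0.69, TOGARAM2 at 0.72 and TGM3 at 0.73, against a median of 2.86, and for S100A12 CD300LB at 0.76, TOGARAM2 at 0.79 and FBP1 at 0.93, against 2.575. FFAR2 and TOGARAM2 each appeared for 2 of the 3 calgranulins. CYP4F3 inactivates leukotriene B4 in neutrophils and FFAR2 is a receptor for short-chain fatty acids.

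For the other 5 genes the nearest profiles were closer, and the medians over all genes were lower too. They were RHOH, TMSB4XP8 and NDUFA2 for S100A4 (0.19 to 0.24, median 0.58), SERPINE2, MAP4K1 and CAPG for S100A6 (0.26 to 0.32, median 0.94), and SCNM1, PFN1 and ARPC4 for S100A11 (0.08 to 0.10, median 0.51). FANCC, E2F1 and NDOR1 were nearest to S100A13 (0.25 to 0.27, median 0.58) and FGD3, CMTM3 and BACH1 to S100P (0.22 to 0.27, median 0.76). PFN1 and ARPC4, near S100A11, encode actin regulators. The 8 points of each profile share 4 conditions, so these distances hold both the group means and the spread of replicates, which were not separated.

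Of the 13 other S100 genes, 4 (S100A7, S100A7A, S100A7L2 and S100G) had 0 counts in every library and 5 had over 10 counts in at least 1. S100B, best known as a glial protein and a RAGE ligand, was at 8.33 and 6.71 CPM in scramble, 1.95 and 2.18 in shKDM3B, 16.8 and 15.8 in scramble+ATRA, and 1.48 and 2.41 in shKDM3B+ATRA. Its shKDM3B values were low in both settings, and its ATRA-treated libraries stood above the untreated ones in scramble cells, while the 2 shKDM3B groups overlapped. By edgeR's quasi-likelihood test the knockdown log2 fold change was -1.86 (SE 0.29, adjusted p = 0.105) without ATRA and -3.06 (SE 0.38, adjusted p = 0.502) with it, the latter -3.00 or -3.10 without scramble+ATRA replicate 1 or 2, and S100B rose with ATRA in scramble cells by 1.15 (SE 0.30, adjusted p = 0.0469), a value that was 0.99 and not called without scramble replicate 2. The difference between the 2 ATRA changes was -1.20 (SE 0.44, adjusted p = 1.00). S100A16 was at 2.31 and 1.39 CPM in scramble and 0.565 and 0.675 in shKDM3B, and had 0 counts in all 4 ATRA libraries, at least 8.02-fold lower in scramble cells and at least 2.01-fold lower in shKDM3B cells. With ATRA S100A16 could pass the filter only through its untreated counts, so no test of its ATRA change is given. The names listed for treated and untreated libraries differ in part, and whether this bears on the zeros of S100A16 was not tested.

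S100Z was at 0.351 and 0.420 CPM in scramble, 0.206 and 0.0614 in shKDM3B, 1.29 and 1.38 in scramble+ATRA, and 0 and 0.201 in shKDM3B+ATRA. The scramble+ATRA pair of S100Z was the highest, at a far lower level than that of S100A8 or S100A9. With ATRA in scramble cells and with the knockdown in ATRA-treated cells S100Z passed the low-count filter only through its scramble+ATRA counts, so no test is given for it. S100A1 had a knockdown log2 fold change of -0.68 without ATRA (SE 0.29, edgeR adjusted p = 0.486), and S100A10, the annexin A2 partner, lay between 12.4 and 25.5 CPM in all libraries. Over the list, 3 of 4 tested genes (S100A1, S100A16 and S100B) were called lower and 0 higher for the knockdown without ATRA, beside 3.53% and 3.48% of all genes, with a median log2 fold change of -1.12 where that of all genes tested was 0.00. With S100Z and S100A16 left out of the comparisons that they entered through 1 group alone, 3 genes could be tested in each of the others. Of these S100B was called lower for the knockdown with ATRA, beside 4.37% of all genes lower and 2.42% higher, and S100B was called higher with ATRA in scramble cells, beside 15% higher and 10.8% lower. In shKDM3B cells 0 of 3 were called, beside 24% and 18.3%.

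**Figure D4:**
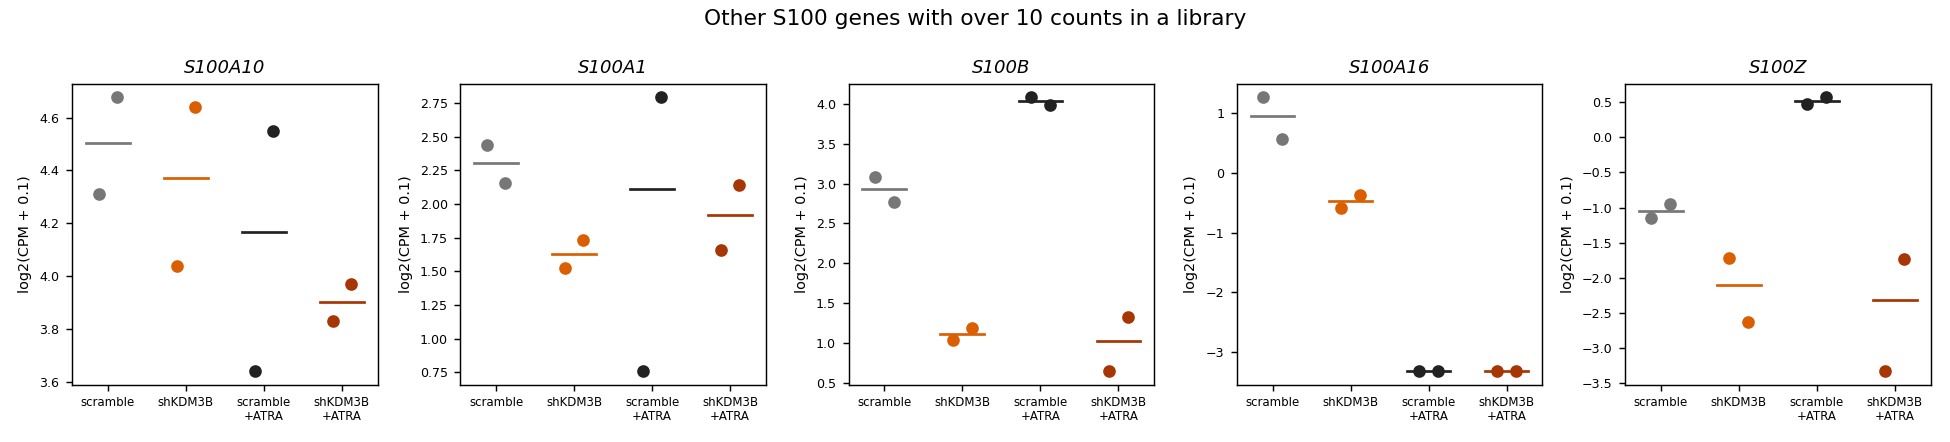
Level of the 5 other S100 genes with over 10 counts in at least 1 library, as log2(CPM + 0.1), with 1 point per library and a bar at the log2 of the group mean. S100B lies at 6.71 CPM or more in scramble and scramble+ATRA and at 2.41 CPM or less in both shKDM3B groups, and S100A16 has 0 counts in all ATRA-treated libraries.

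The receptors of secreted S100 proteins were present unevenly. BSG lay between 350.5 and 581.7 CPM and CD33 between 62.96 and 110.4 CPM over the 8 libraries, and neither was called in any comparison by edgeR. AGER, which encodes RAGE, did not exceed 0.184 CPM in any library, and the TLR4 co-receptors LY96 and CD14 did not exceed 0.738 CPM. TLR4 itself was at 15.8 and 18.0 CPM in scramble, 6.73 and 8.50 in shKDM3B, 25.0 and 22.8 in scramble+ATRA, and 20.01 and 20.4 in shKDM3B+ATRA. It rose with ATRA in shKDM3B cells by 1.45 (SE 0.21, edgeR adjusted p = 0.000359) on the log2 scale, and by edgeR its difference for the knockdown without ATRA was -1.14 (SE 0.23, adjusted p = 0.130). In ATRA-treated cells its knockdown difference was -0.24 (SE 0.19, edgeR adjusted p = 0.709).

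CD36, a scavenger receptor reported to take up S100A8/S100A9 bound to fatty acids, was at 14.1 and 5.92 CPM in scramble, 0.617 and 0.706 in shKDM3B, 21.3 and 28.9 in scramble+ATRA, and 5.58 and 4.22 in shKDM3B+ATRA. It was lower in shKDM3B in both settings without overlap (-3.89, SE 0.48, edgeR adjusted p = 0.0680 without ATRA, and -2.35, SE 0.32, edgeR adjusted p = 0.502 with it), the first value being -3.14 or -4.39 without scramble replicate 1 or 2, and in shKDM3B cells the ATRA-treated libraries lay above the untreated ones. No test is given for that ATRA change, since only 1 of the 2 untreated shKDM3B libraries of CD36 reached the level of the low-count filter. ALCAM, an adhesion protein also reported as an S100 receptor, went the opposite way, at 102.6 and 115.7 CPM in scramble, 181.5 and 160.3 in shKDM3B, 57.9 and 56.0 in scramble+ATRA, and 172.6 and 173.3 in shKDM3B+ATRA. ALCAM fell by 0.90 (SE 0.20, edgeR adjusted p = 0.0283) with ATRA in scramble cells, and in shKDM3B cells the 2 groups overlapped. In all, 1 of 5 tested receptor genes was called higher and 2 lower for the knockdown without ATRA, and 1 higher and 1 lower with ATRA, beside 3.48% and 3.53% of all genes without ATRA and 2.42% and 4.37% with it.

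Among 14 intracellular partners, 3 were called higher and 3 lower of 12 with ATRA in scramble cells, with IL1A left out, beside 15% and 10.8% of all genes. In shKDM3B cells 2 were called higher and 4 lower of 12, beside 24% and 18.3%. ANXA1 was higher with ATRA by 0.97 (SE 0.22, edgeR adjusted p = 0.0305) in scramble and 1.14 (SE 0.13, edgeR adjusted p = 8.66e-05) in shKDM3B cells, and ANXA2, the partner of S100A10, was lower by -1.69 (SE 0.25, edgeR adjusted p = 0.00534) and -2.12 (SE 0.26, edgeR adjusted p = 0.000155). ANXA5 rose in shKDM3B cells by 1.23 (SE 0.17, edgeR adjusted p = 0.000265), with 0.81 (SE 0.22, edgeR adjusted p = 0.0531) in scramble cells. ANXA6, another annexin reported to bind S100 proteins, was at 98.2 and 91.3 CPM in scramble and 55.0 and 68.6 in shKDM3B (-0.62, SE 0.17, edgeR adjusted p = 0.224). AHNAK, a giant scaffold bound by S100A10 with annexin A2, was at 143.1 and 243.1 CPM in scramble, 328.6 and 319.7 in shKDM3B, 12.8 and 4.06 in scramble+ATRA, and 2.11 and 2.61 in shKDM3B+ATRA, and its log2 fold changes with ATRA were -4.46 (SE 0.55, edgeR adjusted p = 0.00260) and -7.04 (SE 0.18, edgeR adjusted p = 1.26e-08). The scramble value of AHNAK was -5.54 without scramble+ATRA replicate 1 and -3.91 without replicate 2. IL1A, whose protein is exported with S100A13, had at most 0.103 CPM without ATRA and 1.84 and 4.33 CPM in scramble+ATRA, where its mean was at least 22.3-fold higher, or 31.4-fold and 13.3-fold without scramble+ATRA replicate 1 and 2. It could pass the filter only through these ATRA-treated counts, so no test is given for IL1A. Of 12 tested partners 1 was called higher and 1 lower for the knockdown without ATRA, beside 3.48% and 3.53% of all genes. With ATRA, where IL1A is again left out, 0 of 12 were called by edgeR, beside 2.42% and 4.37%.

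The genes next to the S100 cluster on chromosome 1 that are not S100 genes were counted by the same rule. Of 12 tested neighbours, 0 were called for the knockdown without ATRA by edgeR, beside 3.48% of all genes higher and 3.53% lower, and their median log2 fold change was 0.01, beside 0.00 over all genes tested. With ATRA, 1 of 11 was called, INTS3, which was higher in shKDM3B, beside 2.42% higher and 4.37% lower, and the median was -0.08, beside 0.03 over all genes. For ATRA in scramble cells 2 of 12 neighbours were called (CRTC2 higher and INTS3 lower), beside 15% and 10.8% of all genes. In shKDM3B cells SLC27A3 passed the filter only through its ATRA-treated counts and is left out. Of the other 11 there, 4 were called (INTS3 and TPM3 higher, RAB13 and GATAD2B lower), beside 24% and 18.3%. The largest fitted ATRA change among the tested neighbours was that of INTS3 in scramble cells at -2.19 (SE 0.51, edgeR adjusted p = 0.0326), and it was -1.46 without scramble replicate 1 and -2.69 without replicate 2. TPM3, the most abundant of them, rose by 0.65 (SE 0.12, edgeR adjusted p = 0.00182) in shKDM3B cells.

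**Figure D5:**
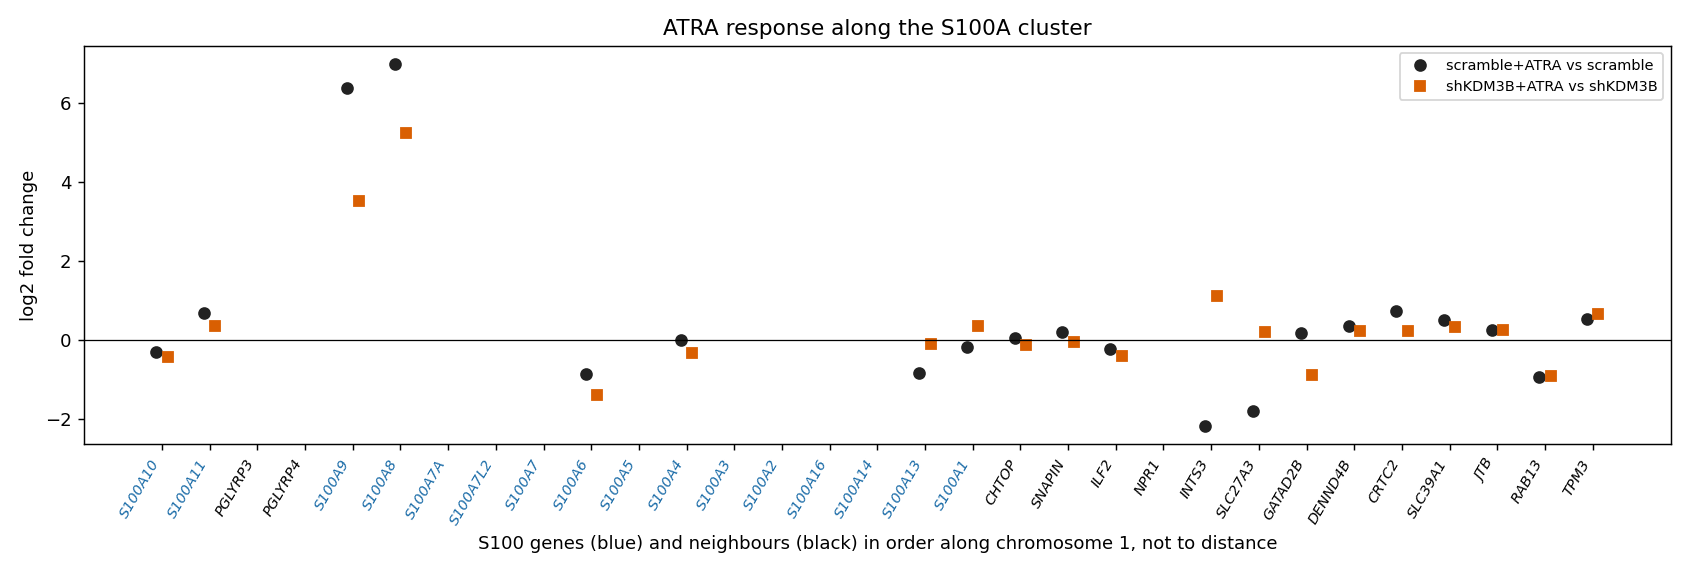
Log2 fold change with ATRA in scramble cells (circles) and shKDM3B cells (squares) for S100 genes and their neighbours, placed in their order along chromosome 1 with equal spacing. Genes without a point did not pass the low-count filter, S100A12 is left out and S100A16 has no point because its ATRA-treated counts are 0, and S100A8 and S100A9 stand at 3.52 to 6.99 while the remaining points lie between -2.19 and 1.12.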

How the data were processed

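RNA-seq libraries of NB4 cells were analysed from the counts per gene that the authors deposited, raw and with no normalization. Per the labels and methods, reads were trimmed with Trim Galore, aligned to hg38 with HISAT2, counted on genes with HTSeq and compared with DESeq2. Versions and the strand setting are not given in the sources used here. HTSeq summary lines, 29.8% to 62.2% of each file's total, were left out. Files of untreated libraries list 56470 names and those of treated libraries 56609, so comparisons with ATRA used the 37526 shared names. The effect of the differing lists on the counts of shared genes was not tested.

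Each comparison was fitted over all genes with edgeR 4.0.16 in R 4.3.3 (filterByExpr, TMM, quasi-likelihood F test), 2 libraries against 2. A gene was called at an unadjusted p under 0.05 and a fold change of at least 1.5, and adjusted p-values followed Benjamini and Hochberg over all genes of a fit. Dividing a log2 fold change by the square root of its F statistic gave the SE. The difference between ATRA responses was an interaction over 8 libraries. An exact permutation test of 2 against 2 cannot go below p = 0.333. Levels per length used the canonical transcripts of GENCODE 44. Positions came from GENCODE on hg38 and promoter sequences from RefSeq on GRCh38.p14, which held all 8 genes and 11 of 13 other S100 genes.

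The genes, gene lists and tests were chosen with earlier results of these data known. Of the other S100 genes, receptors, partners and neighbours, those past the call rule in at least 1 of 4 comparisons were named, at most 4 by smallest unadjusted p per list and comparison, and others named were chosen after their values were seen. The fits were tested on simulated data in which 200 genes were changed 3-fold, and they called 95%, 63.5%, 90.5%, 93% and 68% in the knockdown without ATRA, the knockdown with ATRA, ATRA in scramble, ATRA in shKDM3B and the difference of responses. Of the unchanged genes they called 2.76%, 4.11%, 4.29%, 2.01% and 4.7% in the same order. In the measured difference of responses 2.72% of genes were called lower and 1.27% higher. Alternatives were DESeq2 1.42.0 and its size factors, library size alone, no low-count filter, adjusted p-values, the replicate number as a block, all 8 libraries in one fit, each library left out, and the longest transcript as the length. Tables and plots were made with Python 3.11.15, pandas 2.3.3 and matplotlib 3.10.9.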

Additional observations from a re-analysis of the deposited data

Results flagged for a closer look

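INTS3, a neighbour of the S100 cluster, moved in opposite directions with ATRA in the 2 backgrounds, lower in both scramble+ATRA libraries (1.90 and 2.40 CPM) than in scramble (14.1 and 5.92 CPM) and higher in both shKDM3B+ATRA libraries (18.5 and 22.5 CPM) than in shKDM3B (9.92 and 9.73 CPM). The difference between its ATRA changes was 3.29 on the log2 scale (SE 0.59, edgeR adjusted p = 0.965, unadjusted p = 0.000743), from 2.53 to 3.78 over 13 alternatives. Its counts in the 2 scramble libraries, 281 and 141, equal those of CD36 in the same libraries. S100A6 and AHNAK both had 20 and 26 counts in the 2 shKDM3B+ATRA libraries. The cause of these equal counts was not tested.

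Read pairs outside annotated genes, which enter no comparison, made up 51.4% and 51.0% of uniquely aligned pairs in the 2 shKDM3B+ATRA libraries and 50.0% in the second scramble+ATRA library, against 8.49% to 9.62% in the untreated libraries and 9.36% in scramble+ATRA replicate 1. The knockdown values of S100 genes in ATRA-treated cells without 1 or the other scramble+ATRA library stand beside the results.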

How the results depend on the processing

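Having 2 libraries per group limits every comparison, and the untreated calgranulin values rest on few reads. The counts of genes called, 971, 969, 3213 and 540 for the knockdown without ATRA, the knockdown with ATRA, ATRA in scramble cells and the difference between ATRA responses, became 3, 0, 1604 and 0 with adjusted p-values. Among the receptor, partner, neighbour and other S100 genes, 8, 5, 14 and 6 calls became 0, 0, 9 and 0. For the knockdown without ATRA, where edgeR gave 3, DESeq2 gave 278 genes with an adjusted p under 0.05, no low-count filter 566 and the replicate block 1277. At 0 adjusted calls by edgeR, 1383 and 607 genes had an unadjusted p under 0.05 in the knockdown with ATRA and the difference, and DESeq2 gave 464 and 25 genes with an adjusted p under 0.05. Without a low-count filter the difference gave 941 calls, and with library size alone 45.6% of its calls were higher, against 31.9%. With all 8 libraries in one fit, 4 listed genes were called for the knockdown without ATRA (ALCAM, CD36, S100B and TLR4), against 8 in the separate fit.

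With single libraries left out the calls ranged from 943 to 1650 for the knockdown without ATRA (highest without scramble replicate 2), from 134 to 5360 for the knockdown with ATRA, from 1462 to 5142 for ATRA in scramble cells and from 285 to 2432 for the difference. In the knockdown with ATRA they were 2496 and 5360 without scramble+ATRA replicates 1 and 2, and 134 and 284 without shKDM3B+ATRA replicates 1 and 2. In scramble cells they were 1578 and 1462 without scramble replicates 1 and 2 and 5142 without scramble+ATRA replicate 1. The difference gave 345 without scramble replicate 1, 360 without shKDM3B replicate 2, 2432 without scramble+ATRA replicate 2 and 285 without shKDM3B+ATRA replicate 1. Listed genes called ranged from 4 to 11 for the knockdown with ATRA and from 8 to 19 for ATRA in scramble cells. A single library left in a group was assumed to vary like the other group, and the cause of these shifts was not tested.

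Same-numbered libraries of the compared groups had deviations that correlated at 0.38, 0.02, -0.05 and 0.16, so with only 2 numbers the replicate number was not taken as a pairing. The replicate block gave 525 calls for the knockdown with ATRA and changed the other counts of calls by under 1.5 times.

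Of 38 fitted values of the 8 S100 genes, 33 kept their sign under every alternative and 0 called values changed sign. The exceptions, at least once each, were S100A13 with the knockdown in ATRA-treated cells and with ATRA in shKDM3B cells, S100A4 with ATRA in scramble cells, and S100A4 and S100P in the difference. With the longest transcript as length, S100A8 in scramble+ATRA went from 348.1 to 198.1 CPM per kb, below S100A11, and S100A13 in scramble from 7.29 to 1.59.

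For KDM3B and the other genes named by the rule, 47 of 947 refitted values no longer met the call criterion that the reported value met, 28 met it where the reported value did not, and 0 called values changed sign.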

Other observations

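The ratio of S100A9 to S100A8 per length was 4.32 and 3.13 in scramble, 4.98 and 8.61 in shKDM3B, 2.59 and 2.52 in scramble+ATRA, and 2.33 and 1.86 in shKDM3B+ATRA. It was thus lower in each ATRA-treated library than in each untreated one, and the shKDM3B values rest on 9 and 11 counts of S100A8.

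By the same distance between profiles as used for other genes, S100A8 and S100A9 were 0.64 apart, S100A9 and S100A12 0.79, and S100A8 and S100A12 1.07. Of the remaining genes, S100A11 and S100P, which lie on different chromosomes, were the closest at 0.37, and S100A4 and its neighbour S100A6 were 0.61 apart.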
